A study of Homo sapiens with 47 samples.

Results

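The microRNAs described here are those with high catalogue numbers, from miR-3000 upward, which entered the public miRNA registry late because most are scarce. They were chosen from a table of 1006 mature miRNAs counted by small RNA sequencing. Of 349 entries numbered 3000 or more, 117 reached at least 5 CPM (a count relative to the total of its library) in at least 2 of 47 libraries. From these, miR-3609, miR-4454, miR-4461, miR-4485-3p, miR-4521 and miR-7974 were left out by name, which left 111 members. The other 232 entries numbered 3000 or more stayed below the level. Over the whole table the level was passed by 613 entries, so 502 are not members. Because measured abundance chose the members, their presence in these cells is not a finding.

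The libraries came from a pair of established human prostate cancer cell lines. PC-3 derives, per the labels, from a bone metastasis. 22Rv1 is labelled as a line of primary tumour origin taken from a subline of the CWR22R xenograft. Both were cultured in RPMI-1640 with 10% serum, and no drug or genetic change was named in either. Hypoxic cells spent 24 h at 1 of 6 levels, which were 5, 1, 0.5, 2 and 0.2% O2 and anoxia (0%), and each level had a normoxia control of its own (95% air). Each group had 2 libraries, except the 22Rv1 control of the 0.2% level, of which 1 was analysed here, so 24 PC-3 and 23 22Rv1 libraries were used. The labels do not say whether the 2 libraries of a group came from separate cultures, and the p-values reflect library-to-library spread, which may be technical.

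A miRNA is cut from a hairpin transcript by Drosha and then Dicer, and 1 strand of the resulting duplex, from the 5p or the 3p arm, is loaded into Argonaute. The loaded strand finds target mRNAs mainly through its seed, bases 2 to 8, and lowers their translation or stability. Many late-numbered hairpins sit inside host genes, and some are mirtrons, which are introns that splicing itself releases as a hairpin. Low oxygen stabilises the HIF transcription factors, which switch on a known set of genes including the miR-210 host.

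The sequences on which the results turn are given first, each 5′ to 3′ with the seed in capitals, from RefSeq on GRCh38.p14. The first set holds the most abundant members.
miR-3065-5p: uCAACAAAaucacugaugcugga
miR-3065-3p: uCAGCACCaggauauuguuggag
miR-7706: uGAAGCGCcugugcucugccgaga
miR-3615: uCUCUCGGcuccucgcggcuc
miR-4677-3p: uCUGUGAGaccaaagaacuacu
miR-3180-3p: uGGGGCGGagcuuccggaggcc
miR-3180: uGGGGCGGagcuuccggag
miR-3176: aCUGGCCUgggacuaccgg

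The second set holds members that changed under hypoxia in 1 of the lines, beside miR-3615 of the first set.
miR-3919: gCAGAGAAcaaaggacucagu
miR-6744-5p: uGGAUGACaguggaggccu
miR-6768-5p: cACACAGGaaaagcggggcccug
miR-4741: cGGGCUGUccggaggggucggcu
miR-4671-3p: uUAGUGCAuagucuuuggucu
miR-5683: uACAGAUGcagauucucugacuuc
miR-3620-3p: uCACCCUGcaucccgcacccag
miR-3620-5p: gUGGGCUGggcugggcugggcc
miR-3613-3p: aCAAAAAAaaaagcccaacccuuc
miR-3158-3p: aAGGGCUUccucucugcaggac
miR-3074-3p: gAUAUCAGcucaguaggcaccg
No 2 of these, miR-3615 included, had the same seed. miR-3607-3p also changed and is given by name only.

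RefSeq held 97 of the 111 members. Their median length was 22 bases (18 to 25). Their median GC content was 59.1% (22.7 to 91.3%), against 47.8% over the 432 matched other entries that passed the same level. At least 60% GC was found in 43 members (44.3%) and in 73 of the other entries (16.9%). The GC-rich end is represented by miR-3620-5p (81.8%) and miR-4741 (78.3%), and the AT-rich end by miR-3613-5p (22.7%).

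By GENCODE, 63 matched members lay within a protein-coding gene on the same strand. Of these 41 were in introns alone and 22 overlapped an exon of at least 1 transcript. A further 6 lay in other genes and 28 had no host on their strand. Shared sequence limits how separately some members can be read. miR-3180 is the first 19 bases of miR-3180-3p, and their counts were equal in 46 of 47 libraries, so this pair counts as 1 measurement. miR-3689a-5p, miR-3689b-5p and miR-3689e had equal counts in all 47. How reads matching several entries were assigned is not given in the sources used here. Seeds were otherwise seldom shared. CUCACCA was common to miR-6511a-3p and miR-6511b-3p, and GUGAUAU to the miR-3689 trio. With entries outside the members, miR-5699-3p shared CCUGUCU with miR-4421, and miR-5008-3p shared CUGUGCU with miR-6737-3p.

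Some members are transcribed opposite a better known miRNA. The miR-3065 hairpin (chr17:81125877-81125955, plus strand) lies antisense to miR-338, and miR-3074 (chr9:95086014-95086094, minus strand) antisense to the first miR-24 hairpin. The mature strands are therefore complementary, as shown here with the complementary stretch in capitals.
miR-3065-5p: uCAACAAAAUCACUGAUGCUGGA
miR-338-3p: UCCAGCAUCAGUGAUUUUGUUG
miR-3074-5p: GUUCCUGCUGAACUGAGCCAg
miR-24-3p: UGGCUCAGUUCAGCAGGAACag
The stretch is 22 bases for the first pair and 20 for the second. Each strand has its own sequence, so a read of 1 is not a read of the other.

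Depth ran from 1742290 to 4327382 counts per library in PC-3 and from 960421 to 3181344 in 22Rv1, of which 1847 to 10001 fell on members. Both arms of miR-210, the standard hypoxia-responsive miRNA, were higher under hypoxia, by 0.70 and 0.68 (log2) in PC-3 and 1.01 and 1.57 in 22Rv1. The 5 epithelial markers, the miR-200 family with miR-141, summed to 7764 to 9293 CPM in PC-3 and 23230 to 59690 in 22Rv1. Of 4 blood miRNAs looked up, the 3 that were counted summed to 221 to 398 CPM in PC-3 and 801 to 2645 in 22Rv1. Along the first principal component of their line, 6 libraries stood apart, namely replicate 1 of both 5% groups in each line, and in 22Rv1 also replicate 1 of the 0.5% and replicate 2 of the 0.2% hypoxia group. In the PC-3 pair, 5 smooth muscle or stromal miRNAs summed to 1390 and 1469 CPM, where the PC-3 medians were 35.8 (hypoxia) and 26.0 (normoxia). In 22Rv1 the same miRNAs summed to 33.7 to 511 CPM, with medians of 145 (hypoxia) and 155 (normoxia). The part of the 6 libraries in the results was not tested, but counts without them are given.

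Members made up a small share of each library. In PC-3 normoxia they took 0.128 to 0.159% of counts (median 0.149%), and in hypoxia 0.130 to 0.160% (median 0.149%). In 22Rv1 they took 0.192 to 0.310% (median 0.280%) in normoxia and 0.210 to 0.314% (median 0.252%) in hypoxia. The shares of the lines did not overlap, while those of the treatments did in both. At 0.5% O2 the 22Rv1 shares were 0.2275 and 0.2271% in hypoxia against 0.2799 and 0.2804% in the controls. At 0% they were 0.2347 and 0.2746% against 0.2854 and 0.31%. At 5% hypoxia was the higher, with 0.2098 and 0.297% against 0.1923 and 0.2933%. Differences in share by level were not tested. These shares hold miR-3180 and miR-3180-3p as separate entries, each averaging 0.771 CPM in PC-3 and 294.5 in 22Rv1 (counts over library totals). Members were also chosen by abundance, so the line difference in share is a description only. A library showed at least 1 read for 90 to 109 of the members. With the miR-3180 pair counted once, the 5 most abundant held 63.4% of member counts in PC-3 and 51.2% in 22Rv1.

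In the following, CPM carry TMM scaling (trimmed mean of M values) on 1 scale over all 47 libraries, and values after ± are SDs over libraries. miR-3065-5p was the most abundant member in both lines, with 316.7 ± 17.7 CPM (n = 12) in PC-3 normoxia and 328.0 ± 39.1 (n = 11) in 22Rv1. Its libraries ran from 283 to 344 CPM and from 254 to 377 CPM, so the lines overlapped. The opposite arm, miR-3065-3p, stood at 276.4 ± 15.7 CPM in PC-3 and 198.4 ± 35.0 in 22Rv1. miR-7706, within the gene of the kinase-anchoring protein AKAP13, had 155.1 ± 9.72 and 144.7 ± 32.3 CPM and also overlapped. These 3 were the only members among the 5 highest of both lines.

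The miR-3065 levels contrasted with those of the antisense hairpin. miR-338-3p averaged 1.20 CPM in PC-3 and 31.5 CPM in 22Rv1 (counts over library totals, all libraries), and miR-338-5p 0.362 and 16.6. Both miR-3065 arms were thus above both miR-338 arms in either line, and the gap was wider in PC-3. In the second antisense pair, miR-24-3p stood at 26824 CPM in PC-3 and 6214 in 22Rv1. miR-3074-3p had 1.85 ± 0.768 and 13.2 ± 2.31 CPM in normoxia. A second hairpin also gives miR-24-3p, so its level is not that of the antisense hairpin alone. The 5p arm of the antisense hairpin, miR-24-1-5p, averaged 3.70 CPM in PC-3 and 4.89 in 22Rv1 (counts over library totals). That of the second hairpin, miR-24-2-5p, averaged 313 and 83.6 CPM.

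**Figure D1:**
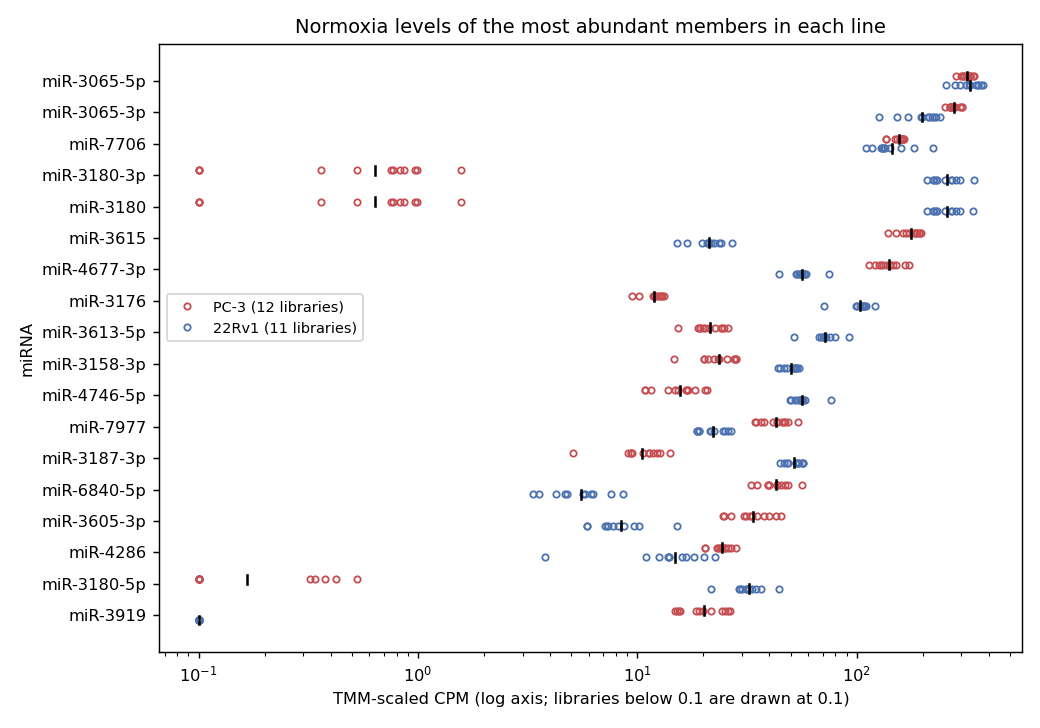
TMM-scaled CPM (log axis) of the 12 most abundant members of each line in normoxia; each circle is 1 library, red for PC-3 and blue for 22Rv1, and the black bar is the mean. miR-3065-5p and miR-7706 overlap between the lines, miR-3180 and miR-3180-3p lie near 258 CPM in 22Rv1 and below 1.6 CPM in PC-3, and miR-3919 is at 0 in every 22Rv1 library.

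Below these shared miRNAs, the lines differed widely. Of the 111 members, 93 passed the test between PC-3 and 22Rv1 normoxia (edgeR quasi-likelihood, Benjamini-Hochberg adjusted p below 0.05 over all entries tested), where 86% of all 613 entries did. PC-3 was higher for 27 (39.6% of all entries) and 22Rv1 for 66 (46.3%). The median difference (PC-3 minus 22Rv1) was -1.11 (log2) over members and -0.15 over all entries. Scaling by library size alone moved the median of all entries to -0.60 and the member split to 21 and 77. The rule that chose the members used abundance in these same libraries, so these counts are a description and support nothing.

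The 22Rv1 side was led by the miR-3180 hairpins of chromosome 16, which are present in several copies. miR-3180-3p ranged from 210 to 341 CPM (median 254) in 22Rv1 normoxia and from 0 to 1.57 (median 0.763) in PC-3, 408 times higher in the fit (log2 difference -8.67, SE 0.203). Its opposite arm miR-3180-5p had 32.2 ± 5.55 CPM in 22Rv1 and 0.166 ± 0.211 in PC-3. miR-4787-3p stood at 25.1 ± 5.34 CPM against 0.789 ± 0.483, and miR-4326 at 18.3 ± 3.18 against 0.656 ± 0.416. miR-4745-5p, within PTBP1, the gene of a splicing repressor, had 10.9 ± 2.28 against 0.393 ± 0.403 CPM. miR-6511b-5p, within PKD1, had 15.4 ± 2.77 against 1.63 ± 1.12 CPM, and miR-6768-5p 10.8 ± 3.27 against 0.956 ± 0.779. In each of these 7 the lowest 22Rv1 library exceeded the highest PC-3 library.

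The PC-3 side was led by miR-3919 (chr3:159282646-159282734, plus strand, in an intron of IQCJ-SCHIP1). It had 621 counts over the 12 PC-3 normoxia libraries (20.2 ± 4.43 CPM) and 0 counts in all 23 22Rv1 libraries. With 3 counts over the 11 22Rv1 normoxia libraries as the limit that a count of 0 allows, it was at least 152-fold higher in PC-3. With same-numbered libraries of a level as a block, the fitted difference of miR-3919 did not pass (edgeR adjusted p = 1), and the fold given here rests on the counts alone. miR-6744-5p (chr11:1256605-1256670, plus strand), in an intron of the mucin gene MUC5B, had 293 PC-3 normoxia counts and 0 in all 23 22Rv1 libraries, at least 71.6-fold higher. In the other direction miR-4520-3p had 137 normoxia counts in 22Rv1 and 0 in PC-3 (1 in PC-3 hypoxia), at least 62.3-fold higher. These limits cover counting error only.

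Other PC-3-high members were read in both lines. miR-3615 had 176.5 ± 18.2 CPM in PC-3 and 21.2 ± 3.24 in 22Rv1, and miR-6840-5p, within the immune receptor gene PILRB, 42.8 ± 6.26 and 5.51 ± 1.62. miR-4683, overlapping the Wnt receptor gene FZD8, had 17.7 ± 3.89 and 2.39 ± 0.934 CPM. miR-3614-5p, overlapping the ubiquitin ligase gene TRIM25, had 16.6 ± 2.19 and 0.611 ± 0.442. Both arms of miR-3605, overlapping the Polycomb gene PHC2, were higher in PC-3, with 33.7 ± 6.69 against 8.46 ± 2.60 CPM for miR-3605-3p and 16.5 ± 4.21 against 5.46 ± 1.97 for miR-3605-5p. miR-4677-3p, in an intron of the centrosomal gene SDCCAG8, had 140.0 ± 17.5 against 56.5 ± 7.23 CPM. The groups did not overlap for any of these 7 members.

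Both arms were members for 15 hairpin names, and 9 of these had at least 100 normoxia counts over both arms in each line. In 8 of the 9 the lines had the same dominant arm, 3p in 5 and 5p in 3. The 3p share of miR-3200 counts was 92.7% in PC-3 and 85.0% in 22Rv1, and that of miR-3605 67.2% and 60.5%. The miR-3613 hairpin favoured 5p, with 3p shares of 12.3% and 14.97%, as did miR-6840, with 12.6% and 3.37%. The gap between lines was at most 13.5 percentage points in these 8 (miR-3177). The exception was miR-6511b, with 52 counts of 5p and 127 of 3p in PC-3 (3p share 70.9%) and 491 and 346 in 22Rv1 (41.3%). miR-6511a favoured 3p in both, with 88.4% and 78.5%. The 5p sequences of miR-6511a and miR-6511b have 21 bases in common, so reads may be divided between them, and their part in this difference was not tested. The other 6 names had fewer counts in at least 1 line. Among them the 3p share of miR-4745 was 72.1% in PC-3 (12 counts of 5p and 31 of 3p) and 30.2% in 22Rv1, and that of miR-3620 was 45.5% (18 and 15 counts) and 85.7%.

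Under hypoxia in PC-3, miR-3919 and miR-6744-5p rose in the mean over the 6 O2 levels, and no member fell. That is 2 of 45 members tested in this line, where 11% of all 463 entries passed in either direction (5.83% higher, 5.18% lower). The same 2 members passed without the libraries that stood apart, where 9.17% of all entries did.

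miR-3919 ranged from 14.9 to 26.5 CPM (median 19.5) in the 12 normoxia libraries and from 21.6 to 52.3 (median 31.0) in the 12 hypoxia libraries. The hypoxia library was higher in 12 of 12 same-numbered pairs, although the ranges met. The mean effect was 0.75 (log2, SE 0.119), a 1.68-fold rise (edgeR quasi-likelihood adjusted p = 9.5e-05). Leaving out any 1 library kept the effect between 0.68 and 0.83 and the call.

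By level, the miR-3919 effect was 0.23 at 5%, 0.70 at 2%, 1.05 at 1%, 1.19 at 0.5%, 0.77 at 0.2% and 0.57 at 0% O2, with SEs of 0.284 to 0.300. At 0.5% the normoxia libraries had 21.6 and 18.6 CPM and the hypoxia libraries 52.3 and 40.6. That was the only member call at a single level in PC-3 (edgeR adjusted p = 0.0492), out of 45 members at 6 levels, where 1.08% of all tests over levels passed and 0.864% of entries rose at 0.5%. The call was lost without any of 14 single libraries (adjusted p up to 0.557), with library-size scaling and with a filter of 20 CPM. Without the libraries that stood apart no member call remained, with 0.764% of all tests passing. Replicate numbers deviated together in these data, and with them as a block the level calls in PC-3 numbered 5 (4.9% of all tests over levels). They were miR-3919 at 1, 0.5 and 0.2%, miR-6744-5p at 0.2% and miR-3605-3p at 2%.

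miR-6744-5p ranged from 4.77 to 14.8 CPM (median 9.21) in normoxia and from 9.19 to 24.1 (median 12.6) in hypoxia. It was higher in 10 of 12 pairs, and the 2 exceptions were the pairs at 5% O2. The mean effect was 0.50 (log2, SE 0.128, edgeR adjusted p = 0.0108). Its largest level effect was 1.02 (SE 0.319) at 0.2%, where normoxia had 7.08 and 6.15 CPM and hypoxia 14.6 and 11.5 (edgeR adjusted p = 0.128 without the block).

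Both risers were thus the members that PC-3 expressed and 22Rv1 did not show, so their response could be read in PC-3 alone. The other 43 members tested in PC-3 had mean effects of -0.39 (miR-3194-5p) to 0.31 (miR-3605-5p). Their precision was limited, since the median 95% interval reached 0.29 either side. miR-3158-3p (0.25, SE 0.0958, edgeR adjusted p = 0.108) and miR-3605-3p (0.22, SE 0.0851, edgeR adjusted p = 0.112) did not pass. The median over the 45 members was 0.04, against -0.00443 over all 463 entries.

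**Figure D2:**
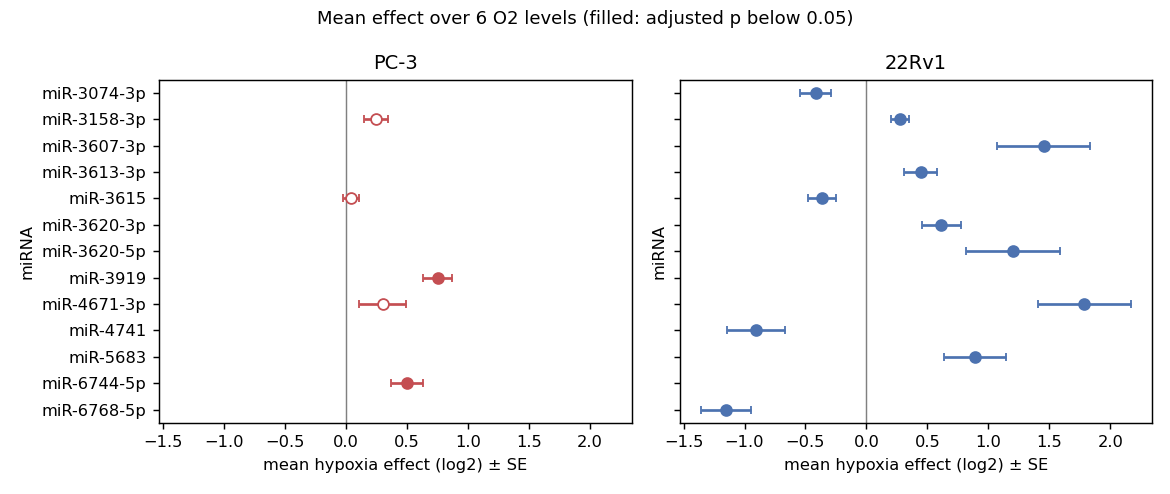
Mean hypoxia effect (log2, hypoxia minus its own control, over 6 O2 levels) with its SE for every member that passed the test in either line; filled symbols passed in that line, open symbols did not, and a missing symbol was not tested there. Only miR-3919 and miR-6744-5p are filled in PC-3, at 0.75 and 0.50, while 22Rv1 shows 7 members to the right of 0 and 4 to the left.

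In 22Rv1, 11 of 97 members tested passed in the mean over levels, 7 higher and 4 lower, where 13.6% of all 552 entries passed (7.61% higher, 5.98% lower). The members' share, 11.3%, was near that background. miR-4671-3p, miR-3607-3p, both arms of miR-3620, miR-5683, miR-3613-3p and miR-3158-3p rose. Of these, miR-4671-3p, miR-3607-3p and miR-3620-5p reached the filter level in hypoxia libraries of this line alone, which favoured a rise. miR-6768-5p, miR-4741, miR-3074-3p and miR-3615 fell. With the replicate block 18 members passed, 7 higher and 11 lower (29.7% of all entries). The block added miR-3176, miR-3619-5p, miR-3677-3p, miR-3939, miR-4517, miR-4745-5p and miR-5699-3p, all lower by 0.24 to 0.56 (log2). Without the libraries that stood apart 18 members passed, where 27.7% of all entries did.

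The strongest fall was that of miR-6768-5p (chr16:2463967-2464038, plus strand), in an intron of TEDC2, whose product belongs to a tubulin-binding complex of the centriole. It ranged from 5.33 to 17.3 CPM (median 10.5) in normoxia and from 1.36 to 10.1 (median 5.20) in hypoxia, on 354 and 163 counts in all. Hypoxia was lower in 10 of 11 pairs, the exception being replicate 1 of the 5% level. The mean effect was -1.15 (log2, SE 0.203), 2.22 times lower (edgeR adjusted p = 0.000387), and it passed without any 1 library (-1.41 to -1.05).

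The effect of miR-6768-5p was -0.10 at 5%, -0.79 at 2%, -1.24 at 1%, -1.56 at 0.5%, -1.33 at 0.2% and -1.89 at 0% O2, with SEs of 0.443 to 0.563. At 0% the normoxia libraries had 17.3 and 13.7 CPM and the hypoxia libraries 3.27 and 4.87, which passed at that level (edgeR adjusted p = 0.0155). The linear trend over the 6 ordered levels was -0.31 per step toward lower O2 (SE 0.117) and did not pass (edgeR adjusted p = 0.444). With the replicate block the trend was -0.45 (edgeR adjusted p = 0.00672, with 3.08% of all entries passing), and the levels 1, 0.5 and 0% passed. At 0.2% the block effect was -2.87. It compares 1 hypoxia library with the lone control, and it also enters the block trend. In PC-3 this miRNA reached at most 2.60 CPM in any library and was not tested.

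miR-4741 (chr18:22933349-22933438, plus strand, overlapping an exon of RBBP8, a gene of DNA end resection) ranged from 3.13 to 7.77 CPM (median 5.61) in normoxia and from 0.647 to 5.56 (median 2.84) in hypoxia. It was lower in 10 of 11 pairs, by 0.91 in the mean (log2 -0.91, SE 0.237, edgeR adjusted p = 0.0129). Its level effects ran from -1.35 at 0.5% to -0.36 at 0% O2, so they did not follow the order of the levels.

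miR-3615 and miR-3074-3p fell less. miR-3615 went from 15.2 to 26.9 CPM (median 21.2) in normoxia to 11.95 to 22.1 (median 16.6) in hypoxia, lower in 10 of 11 pairs (log2 -0.36, SE 0.115, edgeR adjusted p = 0.0407). miR-3074-3p went from 10.95 to 17.7 CPM (median 11.95) to 5.44 to 13.0 (median 9.89), also lower in 10 of 11 pairs (log2 -0.42, SE 0.127, edgeR adjusted p = 0.0341). Their ranges overlapped between treatments. Both calls were fragile, lost without any of 15 single libraries for miR-3615 and 8 for miR-3074-3p, with adjusted p then up to 0.125 and 0.0668. miR-3074-5p, the opposite arm, had -0.25 (SE 0.130) and did not pass. The antisense miR-24-3p, which a second hairpin also gives, had 0.15 (SE 0.0757), which did not pass either.

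Among the risers, miR-3158-3p was the most abundant and the most regular. It ranged from 43.8 to 54.4 CPM (median 51.7) in normoxia and from 51.5 to 74.6 (median 60.8) in hypoxia, higher in 11 of 11 pairs. The mean effect was 0.28 (log2, SE 0.0771, edgeR adjusted p = 0.0203), a 1.21-fold rise. It comes from a pair of facing hairpins on chromosome 10 within DPCD (chr10:101601417-101601497, plus strand, for the first). The call was lost without replicate 1 of the 0.5% normoxia group (adjusted p = 0.0512) and when libraries were scaled by size alone.

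Both arms of miR-3620 rose. The hairpin (chr1:228097263-228097341, plus strand) overlaps an exon of ARF1, the gene of a small GTPase that forms Golgi vesicles. miR-3620-3p ranged from 5.33 to 11.1 CPM (median 8.29) in normoxia and from 6.79 to 21.7 (median 12.4) in hypoxia, higher in 10 of 11 pairs (log2 0.61, SE 0.158, edgeR adjusted p = 0.0112). At 0% O2 the values were 10.6 and 6.55 CPM against 21.7 and 18.1, an effect of 1.21 (SE 0.343, edgeR adjusted p = 0.0487). This single-level result no longer passed with RLE or library-size scaling, no filter, 20 CPM or DESeq2, nor without any of 12 single libraries (adjusted p up to 0.527). The scarcer miR-3620-5p had 44 counts in normoxia and 91 in hypoxia (log2 1.20, SE 0.385, edgeR adjusted p = 0.0428). It reached 5 CPM in 2 hypoxia and 0 normoxia libraries of 22Rv1, so its passing the filter favoured a rise. Its call was lost without any of 10 single libraries (adjusted p up to 0.204).

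miR-5683 (chr6:6169334-6169409, plus strand), with no host gene on its strand, ranged from 1.96 to 7.03 CPM (median 4.68) in normoxia and from 2.57 to 14.4 (median 8.82) in hypoxia. It was higher in 10 of 11 pairs (log2 0.89, SE 0.256, edgeR adjusted p = 0.0276). The effect was largest at 0.5% O2 (2.02, SE 0.571), with 1.96 and 4.67 CPM in normoxia and 14.4 and 13.6 in hypoxia (edgeR adjusted p = 0.0621, with the block 0.00063). The mean call was lost without any of 7 single libraries (adjusted p up to 0.0614). PC-3 had 11 counts of it in normoxia and 12 in hypoxia.

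miR-3613-3p, from an intron of the long non-coding RNA gene DLEU2 (chr13:49996426-49996449, minus strand), ranged from 5.47 to 22.2 CPM (median 11.9) in normoxia and from 9.78 to 28.2 (median 16.8) in hypoxia. It was higher in 7 of 11 pairs (log2 0.45, SE 0.134, edgeR adjusted p = 0.0331), and any of 10 single omissions lost the call (adjusted p up to 0.0957). The dominant arm miR-3613-5p did not pass. The 3p share of the hairpin's counts was 14.97% in normoxia and 21.2% in hypoxia.

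For 3 of the risers the level that made them testable came from hypoxia alone. miR-4671-3p reached 5 CPM in 4 hypoxia and 0 normoxia libraries of 22Rv1, and miR-3607-3p and miR-3620-5p in 2 and 0 each, so their passing the filter favoured a rise. All 3 also passed in a fit with no filter, which does not lift this limit for miR-3607-3p and miR-3620-5p. Both became members through the same hypoxia libraries. miR-4671-3p (chr1:234306467-234306539, plus strand, in an intron of SLC35F3) ranged from 0 to 2.49 CPM (median 1.27) in normoxia and from 0 to 10.1 (median 3.90) in hypoxia. Its counts were 40 and 139, and it was higher in 9 of 11 pairs. The mean effect was 1.79 (log2, SE 0.382, edgeR adjusted p = 0.00258). At 5% O2 it was -0.62 (SE 1.05), and at the other levels 1.65 to 3.03. Without replicate 2 of the 5% hypoxia group, whose partner library held 0 counts, the mean was 0.93 and the call was lost (adjusted p = 0.993).

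miR-3607-3p, a miRNA reported to overlap a small nucleolar RNA, had 45 counts in normoxia and 108 in hypoxia. It ranged from 0 to 2.56 CPM (median 1.17) and from 1.23 to 10.1 (median 2.95), higher in 8 of 11 pairs (log2 1.45, SE 0.384, edgeR adjusted p = 0.0139). In PC-3 its normoxia mean was similar in size, 1.35 CPM, and its hypoxia mean was 1.51 CPM. Whether the reads come from the miRNA or the longer RNA was not tested.

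**Figure D3:**
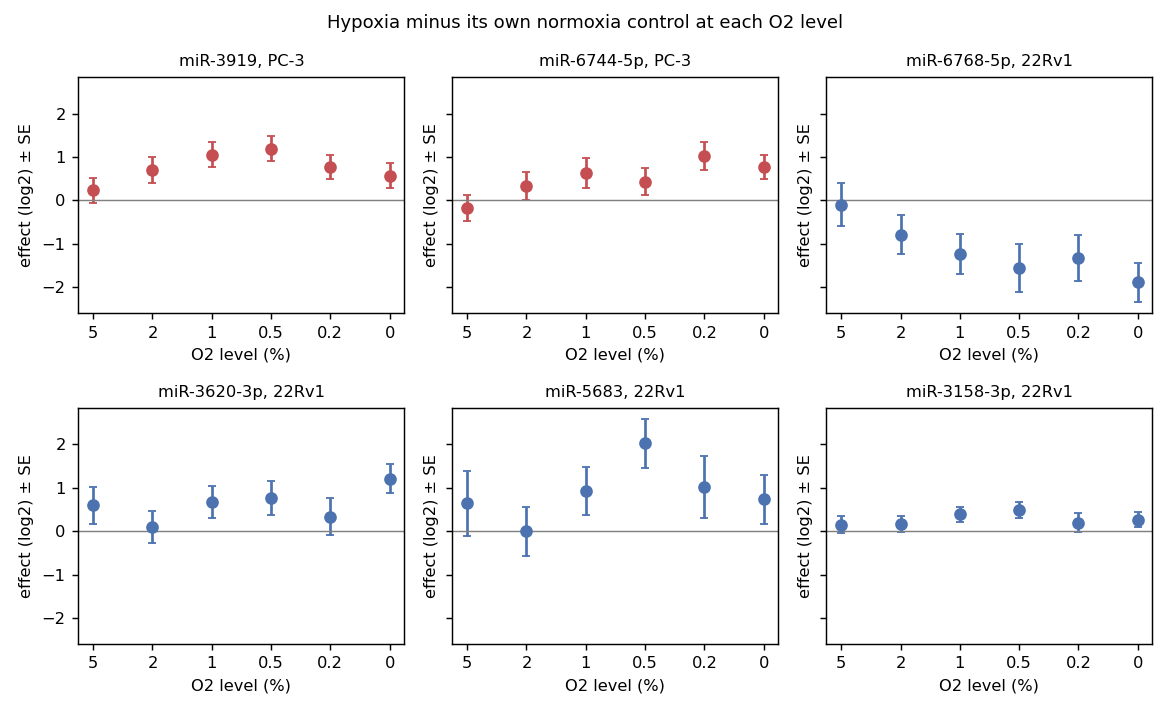
Hypoxia effect (log2) with its SE at each O2 level for 2 members in PC-3 (red) and 4 in 22Rv1 (blue), each level against its own control. miR-6768-5p runs from -0.10 at 5% to -1.89 at 0% O2, and miR-3919 is highest at 0.5% with 1.19.

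At single levels in 22Rv1, the 2 calls named above, miR-6768-5p and miR-3620-3p at 0% O2, were the only ones among 97 members at 6 levels, where 1.63% of all tests over levels and 4.71% of entries at 0% passed. With the replicate block 20 calls were made, where 6.22% of all tests passed, and without the libraries that stood apart 9, where 4.31% did. Of the 20 block calls, 11 fell at 0.5% O2, where 19.4% of all entries passed with the block. They included miR-7706 (0.92, edgeR adjusted p = 0.00449), miR-4677-3p (0.56, edgeR adjusted p = 0.0195) and miR-6511b-3p (1.00, edgeR adjusted p = 0.0409) as higher. miR-3065-3p (-0.44, edgeR adjusted p = 0.0409), miR-3176 (-0.47, edgeR adjusted p = 0.0352) and miR-3613-5p (-0.54, edgeR adjusted p = 0.0261) were lower. Replicate 1 of that hypoxia group was 1 of the libraries that stood apart, and its part in these calls was not tested.

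No member passed the linear trend over O2 levels in either line by edgeR or DESeq2 without a block, with 1 member in PC-3 and 4 in 22Rv1 at an unadjusted p under 0.05. At that unadjusted p stood 17 of all 463 entries in PC-3 and 38 of all 552 in 22Rv1, and 0.216% and 0.181% passed after adjustment. The PC-3 member was miR-6744-5p (0.19 per step, SE 0.0718, edgeR adjusted p = 0.602). In 22Rv1 they were miR-5001-3p, miR-6768-5p, miR-3622a-5p and miR-3664-3p.

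**Figure D4:**
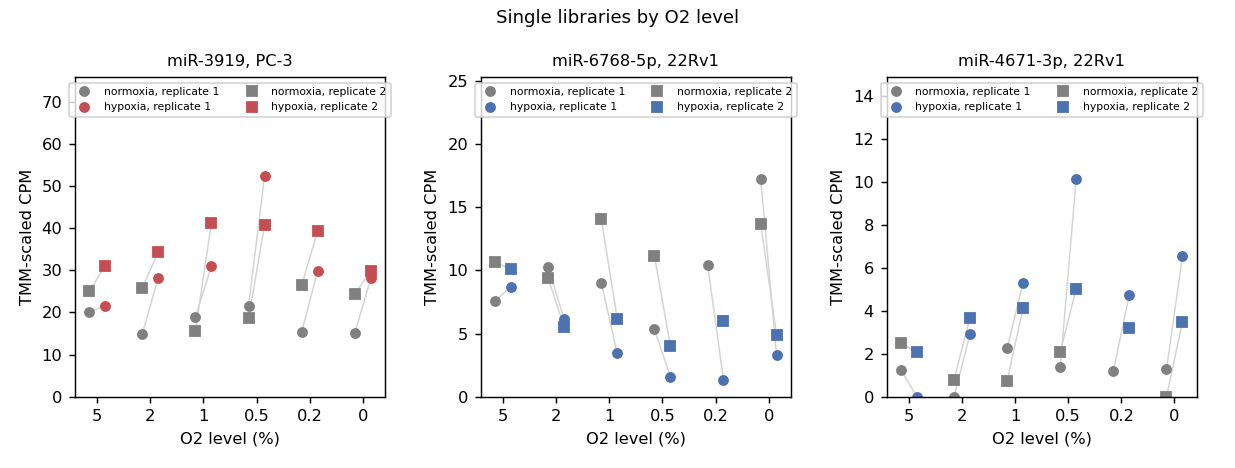
TMM-scaled CPM of single libraries at each O2 level, grey for normoxia and coloured for hypoxia, with circles for replicate 1, squares for replicate 2 and lines joining same-numbered libraries. Every miR-3919 line climbs in PC-3, 10 of 11 miR-6768-5p lines descend in 22Rv1, and miR-4671-3p climbs in 9 of 11 from near 0.

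Both arms of miR-3065 moved little in the mean over levels. In PC-3 miR-3065-5p had a mean effect of 0.10 (log2, SE 0.0586), and in 22Rv1 it had -0.04 (SE 0.0835). miR-3065-3p had 0.04 (SE 0.0479) and -0.12 (SE 0.0924). None of these passed. The antisense miR-338-5p in 22Rv1 rose by 2.37 (SE 0.285, edgeR adjusted p = 2.62e-05), while miR-338-3p had 0.14 (SE 0.142) and did not pass. Of the 2 miR-338 arms, miR-338-5p alone thus stood apart from the miR-3065 arms in the same libraries, although this difference was not tested.

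Of the 32 members tested in both lines, 10 had positive mean effects in both, 4 negative in both and 18 opposite signs. The difference of the mean effect between the lines was tested directly over all 111 members. Only 2 passed, both lower in PC-3 than in 22Rv1, where 2.94% of all 613 entries passed. miR-4671-3p had 0.30 (SE 0.191) in PC-3 and 1.79 in 22Rv1, a difference of -1.50 (SE 0.412, edgeR adjusted p = 0.0329). In PC-3 it was the more abundant in normoxia, with 6.85 ± 1.96 CPM against 1.23 ± 0.828 in 22Rv1.

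The second was miR-5094, within an intron of AP3S2, an adaptor complex gene. It had 72 normoxia and 31 hypoxia counts in PC-3 (2.32 ± 0.716 and 1.18 ± 0.943 CPM), lower in 10 of 12 pairs, against 20.5 ± 3.06 and 19.7 ± 3.07 CPM in 22Rv1. The difference was -1.11 (SE 0.314, edgeR adjusted p = 0.0422). In 37 of 46 single omissions the miR-5094 call was lost (adjusted p up to 0.197), as was that of miR-4671-3p in 27. Without the libraries that stood apart miR-4671-3p alone passed (4.46% of all entries). With the replicate block 4 members passed (9.95% of all entries), adding miR-6768-5p (1.91, edgeR adjusted p = 0.00279) and miR-3615 (0.38, edgeR adjusted p = 0.046). In PC-3 miR-6768-5p had 0.956 ± 0.779 CPM in normoxia and 1.31 ± 0.701 in hypoxia, and miR-3615 had 176.5 ± 18.2 and 181.0 ± 25.7.

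By catalogue number, 16 members of the 6000s were tested in 22Rv1, of which 1 passed (miR-6768-5p). In the 3000s 7 of 42 passed, 5 higher and 2 lower, and in the 4000s 2 of 27. Members inside protein-coding genes passed in 6 of 51 cases in 22Rv1 and the other matched members in 4 of 32. In the stretch of the 6000s that holds many reported mirtrons, 1 of 11 passed. Against 13.6% over all entries, no block is called particular from these counts.

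At the edge of the rule the values are low. The second-highest library of miR-5001-3p, miR-6500-3p, miR-3944-3p and miR-5008-5p, just inside, reached 5.03, 5.04, 5.08 and 5.24 CPM (counts over library totals). Those of miR-4762-5p, miR-5092, miR-5585-5p and miR-6777-5p, just outside, reached 4.92, 4.92, 4.94 and 4.97. In PC-3 71 members and in 22Rv1 55 averaged under 5 CPM in normoxia, where single libraries hold few counts.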

How the data were processed

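Small RNA was sequenced from PC-3 and 22Rv1 cells; per the labels' protocols, RNA came from the miRNeasy kit and libraries from the TruSeq Small RNA kit with gel selection. Per the submitters' processing notes, FastQC and the hg19 genome were used. The sources used here do not name the aligner or the counter. The deposited main file gives raw read counts for each mature miRNA; the authors' second file holds CPM scaled by TMM, used here for its scaling factors alone, as an alternative. The members, lists and tests were chosen with earlier results of these data known.

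Counts were fitted in R 4.3.3 with edgeR 4.0.16 (robust quasi-likelihood, TMM, 1 mean per group, a filter of 5 CPM in 2 or more libraries of the fit), per line and over both lines. Effects were hypoxia minus its own control at each level, their mean, their linear trend, and the difference of means between lines. Calls required a Benjamini-Hochberg adjusted p below 0.05 over all entries tested; tests were two-sided. The lone 22Rv1 control library of the 0.2% level was taken to have the spread of the other groups. With the block within levels, the 22Rv1 effect at 0.2% compares replicate 1 of hypoxia with that control alone. Known changes were recovered in simulated data for the mean effect of each line, with independent libraries and the same shift at every level. The level, trend and line-difference tests were not tried in this way. Library totals were 960421 to 4327382 counts. The spread between libraries of a group beyond counting error, from the common dispersion of the edgeR fit, came to 15.3% (PC-3) and 17.7% (22Rv1). Same-numbered hypoxia and control libraries deviated together in 11 of 11 level pairs (correlation 0.108 to 0.668). Values with a replicate block are therefore given beside some of the named results whose call it changed. Other level calls that the block added, also of named members, are only counted. Named members are those called, the 12 most abundant per line, up to 8 per direction between lines, those at the rule's edge, antisense and arm partners, and shared seeds. Alternatives were RLE and library-size scaling, the authors' factors, no filter, 20 CPM, DESeq2 1.42.0, 2 replicate blocks, omission of each library and, chosen after seeing the data, omission of the 6 libraries that stood apart. Sequences and positions come from RefSeq (GRCh38.p14), and host genes from GENCODE.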

Additional observations from a re-analysis of the deposited data

Results flagged for a closer look

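The mean hypoxia effect differed between the lines, by the test of the difference itself, for 2 members. For miR-4671-3p the difference, PC-3 minus 22Rv1, was -1.50 (log2, SE 0.412, edgeR adjusted p = 0.0329), with 9 of 11 22Rv1 pairs and 8 of 12 PC-3 pairs higher under hypoxia. It rests on 40 and 139 counts in 22Rv1, and without replicate 2 of the 5% hypoxia group of 22Rv1 it was -0.70 and did not pass. For miR-5094 the difference was -1.11 (log2, SE 0.314, edgeR adjusted p = 0.0422), on 72 and 31 counts in PC-3. It was lost in 6 of 9 alternatives, with adjusted p from 0.036 to 0.154. No member could be examined for a single library far from the others within a group, since groups held at most 2.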

How the results depend on the processing

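In PC-3 the mean-effect count stayed at 2 under every alternative listed except the filter of 20 CPM (1, with 15 members tested) and no filter (3). In 22Rv1 the count of 11 became 7 with library-size scaling, 7 with no filter, 4 with 20 CPM, 18 with the replicate block and 18 without the libraries that stood apart. Single omissions gave 2 to 3 in PC-3 and 6 to 16 in 22Rv1. The count of level calls in PC-3 (1) became 0 with library-size scaling, 0 with 20 CPM, 0 without the libraries that stood apart, 5 with the replicate block within levels and 2 with a block by number alone (0 to 1 over omissions). That of 22Rv1 (2) became 1 with RLE, 0 with library-size scaling, 0 with 20 CPM, 4 with DESeq2, 20 and 4 with the 2 replicate blocks, and 9 without the libraries that stood apart (0 to 6 over omissions). The trend counts of 0 became 1 in 22Rv1 with the replicate block within levels (0 to 0 over omissions in PC-3, 0 to 1 in 22Rv1). The line difference (2) became 1 with RLE, 0 with library-size scaling, 1 with the authors' factors, 0 with 20 CPM, 0 with DESeq2, 4 and 4 with the replicate blocks, and 1 without the libraries that stood apart (0 to 3 over omissions). The 93 normoxia calls became 29 with 20 CPM, where 31 members were tested, 98 with library-size scaling (87 of the 93 among them), 89 with the replicate block within levels (87 of the 93, miR-3919 not among them), 90 without the libraries that stood apart, and 85 to 94 over omissions. The replicate block ended no member's call in either mean effect. Among members named for a called effect or line difference, that value kept its sign under every alternative fitted. miR-3919 in PC-3, and miR-3620-3p, miR-4741 and miR-6768-5p in 22Rv1 passed in the mean effect under every alternative and omission that could be fitted, as did miR-6744-5p in PC-3. miR-3607-3p in 22Rv1 passed in the 20 omissions where it was tested. Without either of the 2 hypoxia libraries in which it reached 5 CPM it fell below the filter, so its dependence on them was not tested. The 22Rv1 control of the 0.2% level could not be left out, as its only library, and low counts limit most members.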

Other observations

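Positions were examined after the values had been seen, as a description without a test. The rule chose members by abundance in these libraries, with 65 passing in 22Rv1 alone and 13 in PC-3 alone. The member counts by chromosome therefore support nothing. On chromosome 16, 15 members from 11 hairpins were compared between the lines in normoxia, and 14 were higher in 22Rv1, among them miR-3176, miR-6768-5p, both arms of miR-6511a, miR-6511b, miR-6770 and miR-3177, and the miR-3180 entries. miR-3677-3p was the exception, at 0.41 (log2, PC-3 minus 22Rv1). Here miR-3180 and miR-3180-3p are 1 measurement. Each miR-3180 entry was counted as a hairpin of its own, at a different copy. The median over these 15 was -2.40. Of the 8 other entries on chromosome 16, 5 were higher in PC-3 and 3 in 22Rv1, with a median of 0.42. Chromosomes 6 and 9 each held 6 members, and all 12 were higher in 22Rv1, where 66 of all 111 members were. These include the miR-3689 trio, which is 1 measurement, and both arms of miR-3074. Other entries on chromosome 6 were higher in PC-3 in 4 cases and in 22Rv1 in 4, and those on chromosome 9 were higher in PC-3 in 16 cases and in 22Rv1 in 8. Several of these hairpins have more than 1 copy, and the copies share reads.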
